A study of Mus musculus with 8 samples.

Results

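The Klk1b kallikreins are a family of clustered serine protease genes on mouse chromosome 7, with Klk1, the gene of tissue kallikrein, at one end. Their signal was examined on 8 arrays of mouse pre-iPSCs, which are cells stalled part way through reprogramming to pluripotency. Every probe set whose annotated symbol is Klk1 or starts with Klk1b was taken, including those that name a second gene. This gave 16 of 45101 probe sets, which cover 13 of the 24 Klk1 and Klk1b genes and pseudogenes that RefSeq lists for assembly GRCm38.p6. The other 11, among them Klk1b3 and Klk1b4, have no probe set of that name. The cluster was singled out because some of its members differed between the siRNA groups on these same arrays, so the differences of its members are given as descriptions, and no p-value is printed for any of them.

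The control group (n = 3) received siRNA against luciferase, the 3XHMT group (n = 2) siRNA against Ehmt1, Ehmt2 and Setdb1 together, and the Cbx3 group (n = 3) siRNA against Cbx3. Ehmt1, Ehmt2 and Setdb1 encode methyltransferases of lysine 9 of histone H3, a mark of silent chromatin, and Cbx3 encodes HP1 gamma, a protein that binds the methylated lysine. All cells were kept in embryonic stem cell medium, and RNA was extracted after 3 days of siRNA. Replicates are labelled as biological, but what was repeated is not named, so the spread between them may in part be technical. Each group thus models a partial, transient loss in 1 kind of cell, and transcripts were measured in bulk, where fewer expressing cells and less RNA per cell cannot be told apart.

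The brightest Cbx3 probe set stood at 42.8% of control in the Cbx3 arrays (limma adjusted p = 0.0453), while Setdb1, Ehmt2 and Ehmt1 stood at 63.2%, 66.8% and 79.6% in the 3XHMT arrays (limma adjusted p = 0.556, 1.00 and 1.00). Of 10 pluripotency markers 7 were above the array median in control, with Pou5f1 at a mean of 12.99 on the log2 scale, against 2 of 9 fibroblast markers. Of their 19 probe sets, 17 lay above control in 3XHMT and 9 in Cbx3, with median differences of 0.13 and -0.03. Against control limma called Dppa4 in 3XHMT (2.56 ± 0.27, SE; adjusted p = 0.0267) and Nanog in Cbx3 (3.31 ± 0.35; adjusted p = 0.0428), both higher. Between the knockdowns it called Dppa4 (2.88 ± 0.27; adjusted p = 0.0102) and Zfp42 (3.34 ± 0.46; adjusted p = 0.0320), both higher in 3XHMT. Means in control, 3XHMT and Cbx3 were 5.52, 8.08 and 5.204 for Dppa4, 5.13, 7.94 and 8.44 for Nanog, and 7.03, 10.12 and 6.78 for Zfp42. The mean level of the pluripotency markers was 7.95 to 8.38 on the control arrays, 9.10 to 9.37 on the 3XHMT arrays and 8.24 to 8.64 on the Cbx3 arrays, so it moved with the 3XHMT group, and its part in what follows was not tested. Signal of a control probe set for 18S ribosomal RNA parted the arrays into 3 sets, here called tiers: control 1 with Cbx3 1, control 2 with 3XHMT 1 and Cbx3 2, and control 3 with 3XHMT 2 and Cbx3 3. Array medians lay between 5.87 and 5.90, which gives a mark for what is dim.

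Kallikreins cut other proteins, and many of these enzymes do so after basic residues. Klk1 releases kinins, small vasoactive peptides, from kininogens, whereas the rodent-specific Klk1b copies arose by local duplication and include enzymes that process growth factor and renin precursors. In adult mice most of them are made in the submandibular salivary gland under androgen control, and some in Leydig cells of the testis. 

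The copies arose by duplication, and their start sites look much alike. This likeness was not tested against the array signals. RefSeq windows from 250 bases before to 50 bases after the annotated start were at hand for the 14 protein-coding genes of the cluster. Over 91 pairs, identity across the aligned bases ran from 77.1% to 97.7%, with a median of 85.1%. The windows of the 4 genes with the largest differences between groups (Klk1b27, Klk1b16, Klk1b24 and Klk1b5) are shown with those of Klk1b21 and Klk1b11, close copies of them that behaved otherwise. They are read 5′ to 3′ in build GRCm38.p6, and capitals mark the TATA-like letters TTTAAA, which read the same on both strands.
Klk1b27, chr7:44052040-44052339, plus strand: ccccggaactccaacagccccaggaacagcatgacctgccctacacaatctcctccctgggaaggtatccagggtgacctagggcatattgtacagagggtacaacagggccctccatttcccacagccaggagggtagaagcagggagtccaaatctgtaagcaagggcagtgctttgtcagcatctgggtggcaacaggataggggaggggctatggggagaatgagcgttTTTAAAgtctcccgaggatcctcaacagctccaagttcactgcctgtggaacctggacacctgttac
Klk1b21, chr7:44102042-44102341, plus strand: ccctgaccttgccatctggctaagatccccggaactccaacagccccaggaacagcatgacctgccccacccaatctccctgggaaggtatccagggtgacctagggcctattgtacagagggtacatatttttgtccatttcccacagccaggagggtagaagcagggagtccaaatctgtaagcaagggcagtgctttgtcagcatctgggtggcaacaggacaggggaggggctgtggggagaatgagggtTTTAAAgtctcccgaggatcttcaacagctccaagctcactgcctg
Klk1b24, chr7:44187986-44188285, plus strand: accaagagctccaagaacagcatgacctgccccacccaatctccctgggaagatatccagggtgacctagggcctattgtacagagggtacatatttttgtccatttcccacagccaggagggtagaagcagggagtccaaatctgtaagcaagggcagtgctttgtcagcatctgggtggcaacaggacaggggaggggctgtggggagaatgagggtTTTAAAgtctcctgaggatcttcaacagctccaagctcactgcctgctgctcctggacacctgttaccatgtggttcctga
Klk1b16, chr7:44137040-44137339, plus strand: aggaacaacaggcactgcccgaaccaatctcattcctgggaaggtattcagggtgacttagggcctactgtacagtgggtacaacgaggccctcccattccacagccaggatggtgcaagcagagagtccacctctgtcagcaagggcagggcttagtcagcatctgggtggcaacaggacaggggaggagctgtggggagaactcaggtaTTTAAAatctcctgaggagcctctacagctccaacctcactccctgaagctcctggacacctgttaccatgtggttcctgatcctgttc
Klk1b11, chr7:43995627-43995926, plus strand: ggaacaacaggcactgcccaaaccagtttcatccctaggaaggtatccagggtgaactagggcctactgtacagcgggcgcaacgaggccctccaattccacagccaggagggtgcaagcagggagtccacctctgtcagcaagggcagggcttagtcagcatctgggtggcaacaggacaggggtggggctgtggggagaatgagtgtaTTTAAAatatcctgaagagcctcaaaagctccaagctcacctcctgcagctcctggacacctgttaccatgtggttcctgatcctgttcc
Klk1b5, chr7:44216224-44216523, plus strand: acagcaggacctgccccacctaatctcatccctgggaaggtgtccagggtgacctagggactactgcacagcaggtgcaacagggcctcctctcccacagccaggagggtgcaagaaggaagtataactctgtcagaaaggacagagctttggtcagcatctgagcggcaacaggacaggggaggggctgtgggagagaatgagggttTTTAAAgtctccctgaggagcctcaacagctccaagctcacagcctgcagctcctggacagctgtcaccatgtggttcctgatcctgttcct
The letters TTTAAA occurred once in 13 of the 14 windows, against 13.2% of 32851 windows over all genes. The window without them, that of Klk1, ends in the letters gagaatgagggt, which directly precede TTTAAA in the Klk1b24 window. The bases that follow in Klk1 were not read, so a lack of TTTAAA there cannot be stated. CG dinucleotides were rare in the cluster, with 0 to 3 in a window and a median of 1, while the median over all windows was 7. The letters AGAACA or their reverse complement TGTTCT, one arm of an androgen receptor site, were in 2 of the 14, Klk1b24 and Klk1b3, against 19.0% of all windows. Such matches describe the letters of these windows alone.

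The Klk1b21 window shared 97.7% of aligned bases with that of Klk1b24 and 94.5% with that of Klk1b27. The windows of Klk1b16 and Klk1b11 shared 91.6%, and that of Klk1b5 was closest to the one of Klk1b4, at 92.8%, a gene with no probe set here. All these starts lie on the plus strand. By the starts shown, Klk1b27 is followed by Klk1b21, Klk1b22, Klk1b16, Klk1b24, Klk1b3, Klk1b4, Klk1b5 and Klk1 in that order. The RefSeq model of Klk1b21 begins further upstream, which puts it before Klk1b27 where genes are ordered by model start.

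**Figure D1:**
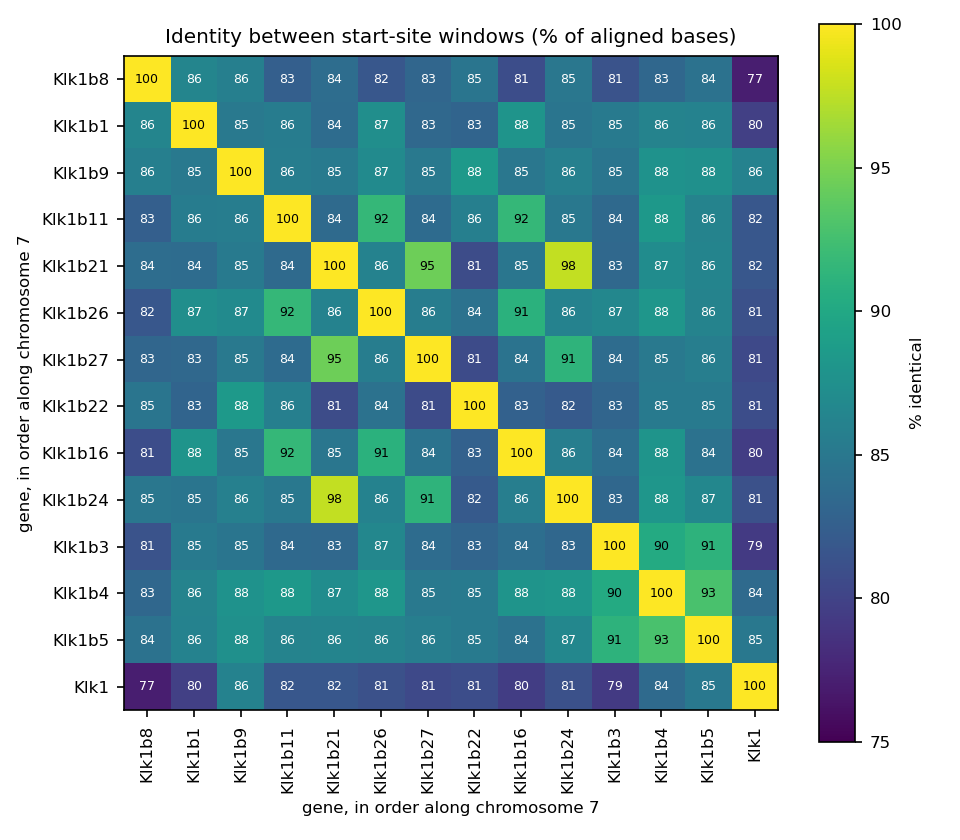
Percent of identical bases between the start-site windows of the 14 protein-coding Klk1 and Klk1b genes, ordered by RefSeq gene start, for each pair after alignment. Klk1b21, Klk1b24 and Klk1b27 form a close set with 91.3% to 97.7% identity, and the Klk1 and Klk1b8 windows are the least alike, at 77.1%.

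Klk1, the tissue kallikrein gene, was bright in every group. Its probe set 1415837_at read 13.03, 13.66 and 13.41 on control 1 to 3, 12.96 and 13.18 on the 3XHMT arrays, and 13.44, 13.52 and 13.33 on the Cbx3 arrays, in log2 units. The control arrays span the Cbx3 arrays, 1 3XHMT array lies within the control range and the other just below it, and both 3XHMT arrays lie below all Cbx3 arrays. Differences from control were -0.29 ± 0.19 (SE) for 3XHMT and 0.06 ± 0.17 for Cbx3. Probe set 1448107_x_at followed it closely, with a Pearson correlation of 0.992 over the 8 arrays, which share their groups and tiers. The dimmer 1455977_x_at was lower on both 3XHMT arrays, 8.88 and 8.96, than on any control array, 8.99 to 9.43, a difference of -0.34 ± 0.15. The last Klk1 probe set, 1460050_x_at, ran the other way: it read 7.83 and 7.89 on the 3XHMT arrays, 7.75 to 7.82 in control and 7.55 to 7.66 in Cbx3, all within 0.34 log2 units. In 3XHMT against control 1448107_x_at differed by -0.28 ± 0.18 (SE), and 1460050_x_at by 0.08 ± 0.10, less than its standard error. The 4 Klk1 probe sets thus had no common sign for 3XHMT, with 1460050_x_at alone above control.

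The probe set shared by Klk1b9 and Klk1b22, which encode epidermal growth factor binding proteins, was also bright. It read 11.997, 11.85 and 11.63 in control, 11.96 and 11.74 in 3XHMT and 12.43, 11.83 and 12.02 in Cbx3, so the 3 groups overlap. It cannot tell the copies apart. The probe set shared by Klk1b26, whose product converts prorenin, and Egfbp2 was dim, at 2.86 to 3.34 on all arrays. A probe set annotated to Egfbp2 alone, just outside the naming rule, was equally flat, at 3.66 to 3.93.

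Klk1b27, one of the copies known from Leydig cells, stood highest in 3XHMT cells. Its probe set 1421587_at read 5.70, 5.75 and 6.11 in control, 7.71 and 7.64 in 3XHMT, and 6.25, 6.55 and 6.53 in Cbx3. The 3 groups do not overlap, and their order is control, Cbx3, 3XHMT. Signal was 3.53-fold control in 3XHMT, a log2 difference of 1.82 ± 0.16 (SE), and 1.502-fold control in Cbx3, a difference of 0.59 ± 0.14. Between the knockdowns the difference was 1.23 ± 0.16. Within tiers 3XHMT exceeded control by 1.95 and 1.53, and Cbx3 exceeded control by 0.55, 0.79 and 0.42.

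Klk1b16, which encodes the gamma-renin of the submandibular gland, stood higher in both knockdowns. It read 4.57, 5.005 and 5.06 in control, 6.24 and 6.60 in 3XHMT and 5.92, 6.02 and 6.29 in Cbx3. Control arrays all lie below the others, while the knockdown groups overlap. The folds over control were 2.91 in 3XHMT (log2 difference 1.54 ± 0.20, SE) and 2.30 in Cbx3 (1.20 ± 0.18). Within tiers the differences were 1.23 and 1.54 for 3XHMT and 1.36, 1.01 and 1.23 for Cbx3. Control signal was under the array median.

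Klk1b24, another copy known from Leydig cells, showed a smaller difference of the same sign in both knockdowns. It read 7.85, 7.82 and 7.61 in control, 8.18 and 8.46 in 3XHMT, and 8.79, 8.38 and 8.18 in Cbx3. All knockdown arrays lie above all control arrays, and the knockdown groups overlap. The differences from control were 0.56 ± 0.19 (SE) and 0.69 ± 0.17, or 1.47-fold and 1.62-fold.

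Klk1b21, whose start-site window is nearly that of Klk1b24, did not separate the groups. It read 6.88, 7.27 and 7.08 in control, 8.06 and 6.92 in 3XHMT and 7.52, 6.95 and 7.43 in Cbx3. The 3XHMT mean rests on 1 array: the difference from control was 0.41 ± 0.32 (SE), -0.16 without 3XHMT replicate 1 and 0.98 without 3XHMT replicate 2.

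Klk1b5 stood higher in the Cbx3 arrays and level with control in the 3XHMT arrays, by both of its probe sets. Probe set 1449313_at read 3.99, 5.23 and 4.37 in control, 4.67 on each 3XHMT array and 6.09, 6.66 and 5.80 in Cbx3. Probe set 1419010_x_at read 4.40, 5.58 and 4.90 in control, 4.75 and 4.97 in 3XHMT and 6.51, 6.62 and 5.602 in Cbx3. In both, every Cbx3 array lies above every control and 3XHMT array, although in the second Cbx3 3 lies only just above control 2, at 5.602 against 5.58. The folds over control in Cbx3 were 3.14 and 2.44, or 1.65 ± 0.33 and 1.28 ± 0.35 (SE) on the log2 scale. For 3XHMT the differences were 0.14 ± 0.37 and -0.10 ± 0.39, with standard errors larger than the differences. Cbx3 exceeded 3XHMT by 2.85-fold and 2.61-fold.

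Control arrays of Klk1b5 themselves differed by over 1 log2 unit, with control 1 lowest and control 2 highest. Within tiers the Cbx3 excess was 2.10, 1.43 and 1.43 for 1449313_at and 2.10, 1.04 and 0.71 for 1419010_x_at, largest against control 1. The 3XHMT differences within tiers had no common sign, at -0.56 and 0.31 for the first probe set and -0.83 and 0.07 for the second. The probe sets correlated by 0.965 over the 8 arrays, and 1 of them is of the kind that may match several transcripts.

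The remaining members were dim and flat. Klk1b8, Klk1b1, Klk1b11 and the transcribed pseudogene Klk1b7-ps read between 4.04 and 5.50 on all arrays, and their group means differed from control by -0.12 to 0.10. In Klk1b11, the close window copy of Klk1b16, the arrays of 3XHMT read 4.55 and 4.04, on either side of the control arrays at 4.27 to 4.42.

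**Figure D2:**
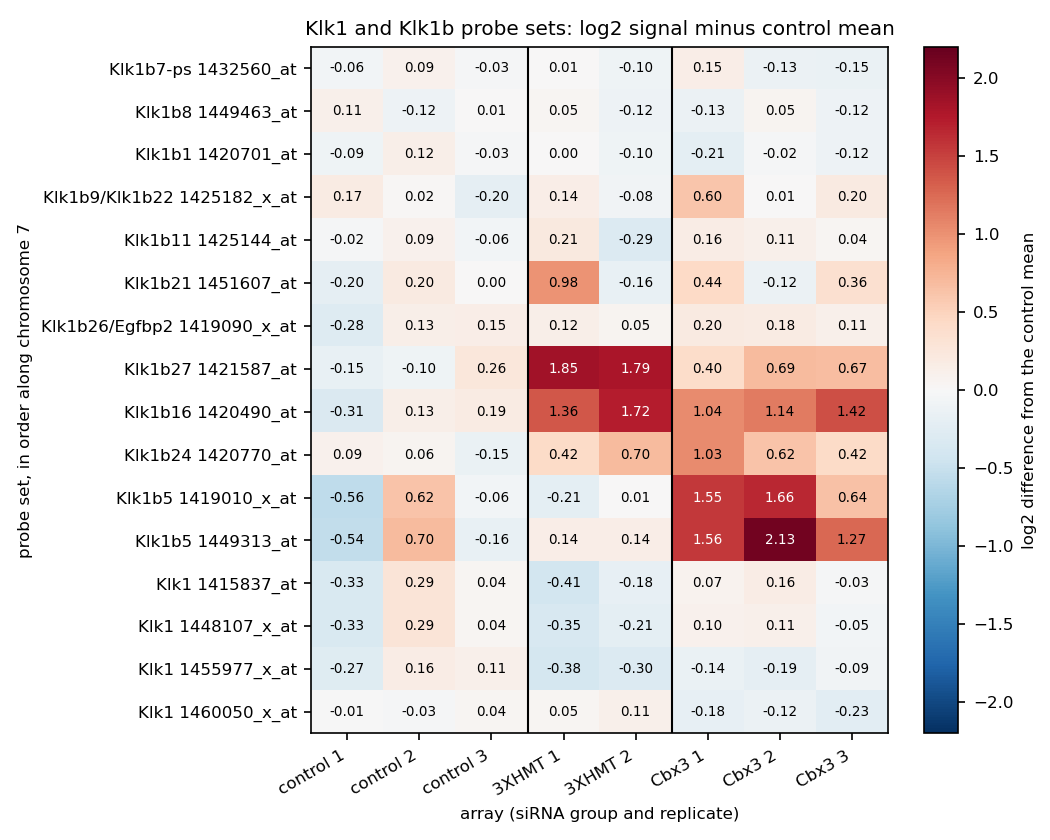
Difference of each array from the control mean, in log2 units, for the 16 Klk1 and Klk1b probe sets, ordered by RefSeq gene start. Klk1b27, Klk1b16 and Klk1b24 are raised on both 3XHMT arrays. The same genes and both Klk1b5 probe sets are raised on all 3 Cbx3 arrays. The probe sets from Klk1b7-ps to Klk1b26 show little difference apart from single arrays of Klk1b9/Klk1b22 and Klk1b21.

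**Figure D3:**
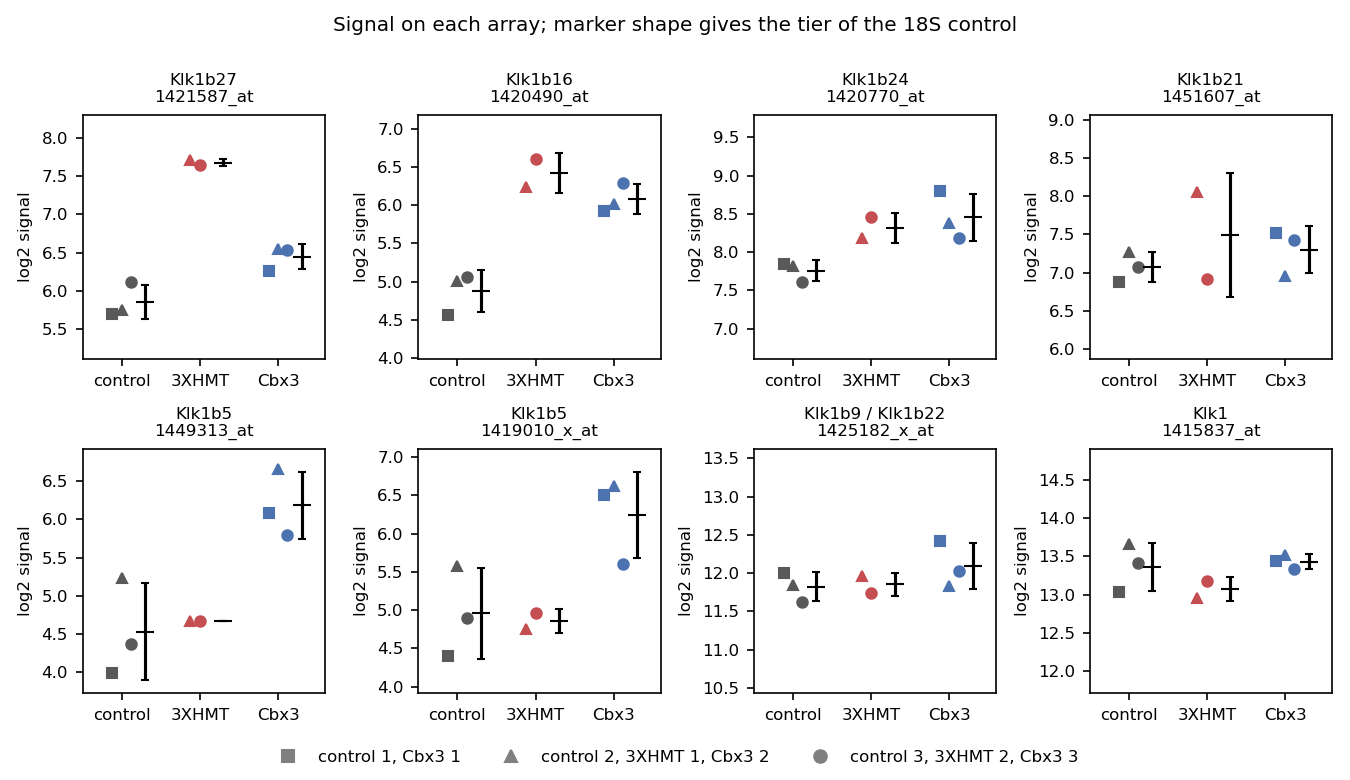
Log2 signal of 8 member probe sets on each array by siRNA group, with the mean and SD beside the points (n = 3, 2 and 3) and the tier given by marker shape. Every panel spans the same number of log2 units; Klk1b27 separates all 3 groups, Klk1b5 separates Cbx3 alone, and Klk1 overlaps between control and both knockdowns.

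Counted over the cluster, a few members differed and most did not. In 3XHMT against control, 3 of 16 probe sets differed by more than 0.5 log2 units (Klk1b27, Klk1b16 and Klk1b24), and the median over the members was 0.00, as over all probe sets. In Cbx3 against control 5 of 16 did (both Klk1b5 probe sets, Klk1b16, Klk1b24 and Klk1b27), with a median of 0.13 beside 0.00 over all probe sets. The share of all probe sets that differed by more than 0.5 log2 units was not counted, so these counts have no background. Higher signal without overlap between the groups was seen in 4 of 16 probe sets for 3XHMT, where 8.54% of all probe sets did so, and in 5 of 16 for Cbx3, where 6.11% did. Lower signal without overlap was seen in 1 of 16 in each comparison, beside 6.81% and 5.84% of all probe sets, in each case a Klk1 probe set. Between the knockdowns 2 of 16 lay higher in 3XHMT without overlap (11.8% of all probe sets), and 5 of 16 lower (11.5%), both Klk1b5 and 3 Klk1 probe sets. Both comparisons use the same control arrays. As the cluster was chosen on these values, nothing further is read from the counts.

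The limma fit over 45037 probe sets called 1 of the 16 higher in 3XHMT than in control, Klk1b27, where it called 0.0511% of all probe sets higher, 0.00444% lower and so 0.0555% in either direction. For Cbx3 against control it called 0 of the 16, where 0.0377% of all probe sets were called higher, 0.04% lower and 0.0777% in either direction. Between the knockdowns it called Klk1b27, where 0.315% of all probe sets were called higher in 3XHMT, 0.213% lower and 0.528% in either direction. Blocking on the tier, which for control and Cbx3 equals the pairing by replicate number, it called 2 in 3XHMT against control (Klk1b27 and Klk1b16; 0.393% of all probe sets higher, 0.306% lower), 5 in Cbx3 against control (both Klk1b5 probe sets, Klk1b16, Klk1b24 and Klk1b27; 1.45% higher, 1.99% lower) and 3 between the knockdowns, Klk1b27 higher in 3XHMT (2.5%) and both Klk1b5 probe sets higher in Cbx3 (2.16%). The call of Klk1b27 against control was lost without control replicate 1 or 2. In those fits 1 and 3 of all 45037 probe sets were called, beside 25 with all arrays, so the loss was general. Leaving out a 3XHMT replicate leaves 1 array in that group, and no call is given for it. The Klk1b27 difference stayed at 1.74 to 1.95 under all 8 omissions of an array.

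The members did not move as 1 block over the arrays. Klk1b27 and Klk1b16 correlated by 0.838 over the 8 arrays and Klk1b16 and Klk1b24 by 0.723. Among the other genes of the cluster, the Klk1b5 probe set 1419010_x_at correlated most with the bright Klk1 probe set 1415837_at, at 0.709, and 1449313_at with the dim one of Klk1b26 and Egfbp2, at 0.645. Both ran against the Klk1 probe set 1460050_x_at, at -0.708 and -0.760. These arrays share groups and tiers, so the values are descriptions.

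The genes whose pattern was most like that of the widest-ranging member, Klk1b5 (1449313_at), were sought among 34920 probe sets. The 5 highest Pearson correlations over the 8 arrays were those of Gnasas1 (0.987), Ppp1r16a (0.982), the RNA-binding protein gene Rbm47 (0.978), the tight junction gene Cldn4 (0.978) and the ubiquitin ligase gene Rnf114 (0.977). Cldn4 moved most of these, from a mean of 7.16 in control and 7.004 in 3XHMT to 8.67 in Cbx3, whereas Gnasas1 spanned 3.96 to 4.12. For Klk1b27 and Klk1b16, compared in the same way after their values were seen, the lists were led by 5330411J11Rik (0.986; means 4.61, 5.46 and 4.84 in control, 3XHMT and Cbx3) and Vps35l (0.977). Lrp11, a receptor family gene also high in the list of Klk1b16 (0.958), had means of 8.84, 10.03 and 9.79.

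Kallikrein genes outside the Klk1b family lie in the same locus, and none passed the limma test against control. Of 13 such genes 10 were measured, Klk4 to Klk13 with 1 probe set each, and 0 were called in either knockdown, with 2 higher and 0 lower at an unadjusted p under 0.05 in each. Klk8, neuropsin, read 4.79, 4.98 and 5.05 in control, 5.38 and 5.76 in 3XHMT and 5.14, 5.28 and 5.63 in Cbx3. Its differences from control were 0.63 ± 0.18 (SE) and 0.41 ± 0.17 (limma adjusted p = 0.748 and 0.637; 0.124 and 0.0811 once the tier was blocked). Klk13 was high on 1 3XHMT array, at 6.67 against 5.54 on the other and 5.14 to 5.45 in control (0.77 ± 0.29, limma adjusted p = 1.00). Between the knockdowns Klk11 alone passed, with the block only. Its log2 difference of 3XHMT from Cbx3 was -0.85 ± 0.17 (SE) with the block (limma adjusted p = 0.0265). Without the block it was -0.47 ± 0.48 (0.945), and the groups overlapped.

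Genes on either side of the kallikrein locus were tested in the same fit. For the 10 nearest protein-coding genes on each side, 17 probe sets of 14 genes were measured, and limma called 0 in either knockdown against control, with 2 higher in 3XHMT and 0 in Cbx3 at an unadjusted p under 0.05. Their median difference was 0.10 in 3XHMT and 0.04 in Cbx3. Between the knockdowns 0 passed, with 3 higher and 0 lower in 3XHMT at an unadjusted p under 0.05, and with the block 2 passed. These were the zinc finger genes Zfp658 (1.21 ± 0.21 higher in 3XHMT, SE; limma adjusted p = 0.0147, 0.575 without the block) and Zfp819 (0.77 ± 0.14; 0.0154 and 0.145), on the Klk14 side of the locus. On the side next to Klk1, differences from control stayed between -0.06 and 0.46.

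**Figure D4:**
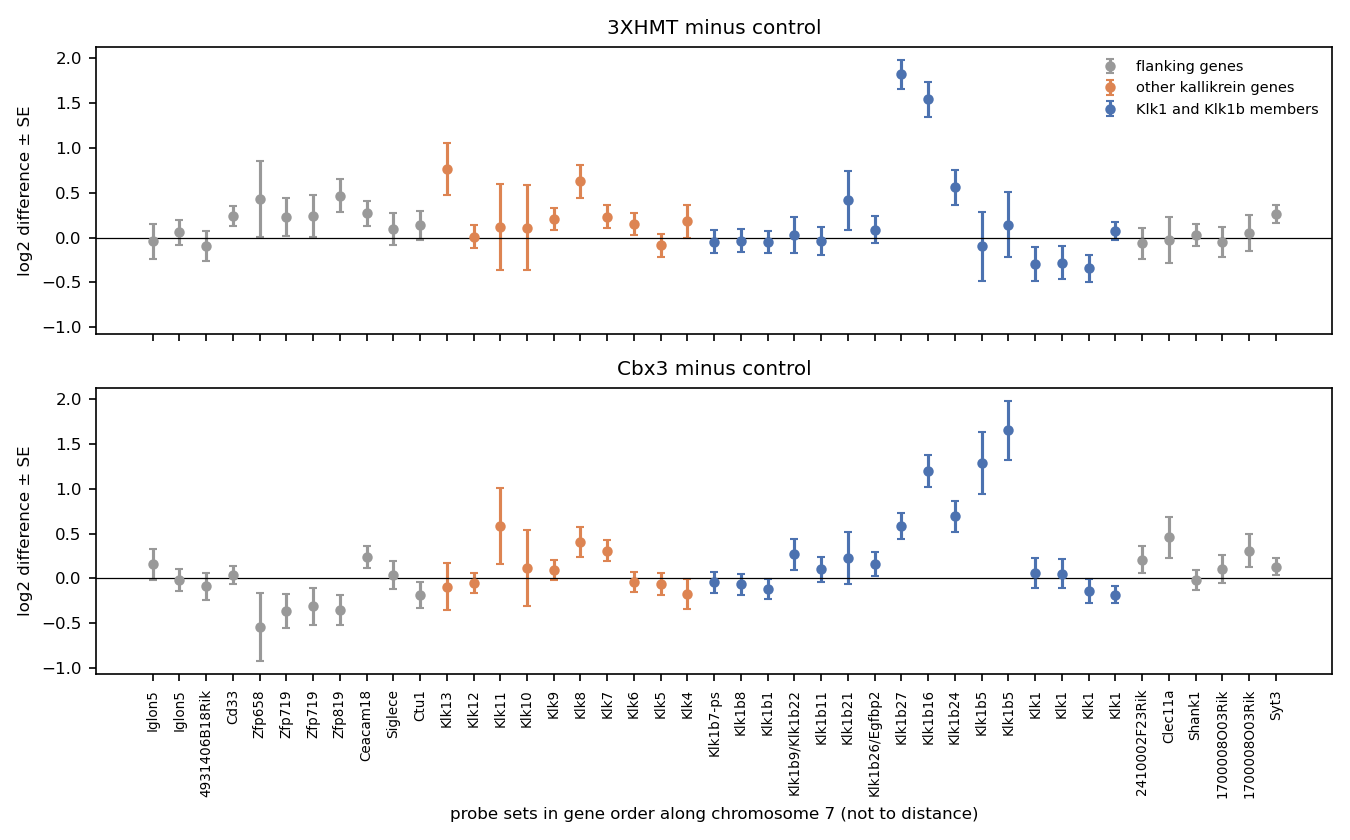
Log2 difference from control (limma estimate ± SE) for each probe set of the flanking genes, the other kallikrein genes and the Klk1 and Klk1b members, in gene order by RefSeq gene start and not to distance. The largest differences lie from Klk1b27 to Klk1b5: Klk1b27 and Klk1b16 with 1.82 and 1.54 in 3XHMT, and Klk1b16 and both Klk1b5 probe sets with 1.20, 1.28 and 1.65 in Cbx3.

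The difference between members and the other genes of the locus was not tested, because the members were chosen on these values. Genes of kallikrein substrates, kinin receptors and inhibitors gave 29 probe sets of 16 genes, and limma called 0 in either knockdown against control. At an unadjusted p under 0.05, 0 differed in 3XHMT, and 2 were higher and 2 lower in Cbx3. With the tier as a block 0 were called in 3XHMT, and 3 were in Cbx3. These were the protease inhibitor gene Spint1, higher by 0.67 ± 0.11 (SE; limma adjusted p = 0.0155, 0.217 without the block), and 2 probe sets of Egfr, the receptor of epidermal growth factor, lower. Its probe set 1424932_at differed by -0.89 ± 0.11 (limma adjusted p = 0.00475; 0.217 without the block) and 1435888_at by -0.81 ± 0.11 (0.00549 and 0.420). The other Egfr probe sets measured were not called. Kng1 encodes the kininogen that tissue kallikrein cuts, and Bdkrb1 and Bdkrb2 encode kinin receptors. The control means of these 3 genes were 4.08 to 5.18, under the array medians, and none was called.

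Markers of the tissues where Klk1b genes are known were low in all groups. Of 9 submandibular gland markers 1, Aqp5, was above the array median in control, and their mean level was 4.29 to 4.42 in control, 4.36 to 4.51 in 3XHMT and 4.37 to 4.45 in Cbx3. Of 6 Leydig cell markers 2, Star and Nr5a1, were above it, with means of 5.12 to 5.33, 5.37 to 5.45 and 5.24 to 5.46. The Leydig mean was thus above the control range on both 3XHMT arrays, at 5.37 and 5.45 against at most 5.33, and its part in the Klk1b values was not tested.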

How the data were processed

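Total RNA of 8 samples was labelled with biotin and hybridised to Affymetrix arrays, per the labels' protocols. The deposited table holds log2 values made by the authors with RMA (background correction, quantile normalization, probe summary), per the submitters' processing notes; its settings are not given in the labels or files. Quantile normalization removes shifts shared by most genes, and close paralogs can share probes: 6 of the 16 member probe sets end in _x_at and 2 name several genes. Names came from the platform annotation.

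Groups were fitted to 45037 probe sets, without 64 control probe sets, in R 4.3.3 with limma 3.58.1 (lmFit, eBayes, two-sided) and p-values adjusted by Benjamini-Hochberg over all of them; called means an adjusted p under 0.05. The script was tested on simulated data. Start-site windows were aligned with Biopython 1.88 (end gaps free, gap columns left out of identity). The number of arrays limits precision.

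The members and lists were chosen with earlier results of these data known. All members, the 4 siRNA targets, and, in the lists of other kallikrein, flanking and substrate genes, any called gene or otherwise the 2 largest differences were named; other names were added after values were seen. Same-numbered control and Cbx3 arrays pair, with deviations from group means correlating by 0.51, 0.62 and 0.74; 3XHMT arrays do not (0.05 and -0.66 with control). The tier was set from the 18S signal, at its 2 widest gaps. Alternatives were the replicate number and the tier as blocks, cyclic loess, fewer probe sets, fewer groups, a trended robust fit and leaving out each array.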

Additional observations from a re-analysis of the deposited data

How the results depend on the processing

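The differences of Klk1b27, Klk1b16, Klk1b24 and Klk1b5 kept their sign in Cbx3 against control, and those of the first 3 in 3XHMT against control, under every alternative in which their probe set remained. Of the 16 members 8 lie under the median of mean signals, so that leaving out dim probe sets removed, among others, Klk1b16 and both Klk1b5 probe sets. Counts of called members moved more. For 3XHMT against control the count of 1 became 2 with the replicate block and 2 again when the tier was the block. It was 0 with only the 2 groups compared, and 0 to 1 when single control or Cbx3 arrays were left out. Over all 45037 probe sets the calls went from 25 to 67 and 315 with these blocks, and to 3 with the 2 groups. They were 1 to 23 without those single arrays. For Cbx3 against control the count of 0 became 1 with the replicate block (Klk1b16) and 5 with the tier. Calls over all probe sets went from 35 to 153 and 1547 in the same settings. Between the knockdowns the count of 1 became 3 with the tier and 0 with only the 2 groups. It was 0 to 1 without single control or Cbx3 arrays, lost without control replicate 2 or any Cbx3 array. Calls over all probe sets went from 238 to 2099 with the tier and 80 with the 2 groups. They were 17 to 186 without those single arrays.

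The median over the members between the knockdowns was -0.10, 0.0149 without probe sets ending in _x_at or _s_at, and -0.138 to 0.0054 without single arrays, above 0 only without 3XHMT replicate 2. With the replicate block 1 substrate or pathway probe set was called between the knockdowns, and with the tier 2, beside 3 in Cbx3 against control, 2 flanking and 1 other kallikrein probe set. Among the targeted genes, the Cbx3 probe set stayed lower in the Cbx3 arrays but was no longer called in some settings. Its difference was -1.37 to -1.14 without single control or Cbx3 arrays (limma adjusted p = 0.0617 to 0.228). It was -1.22 with cyclic loess (0.0504) and -1.23 with only the 2 groups (0.101). Without any 1 control array, or Cbx3 replicate 2 or 3, limma called 0 of all 45037 probe sets. It called 3 without Cbx3 replicate 1, 36 with cyclic loess and 14 with the 2 groups. The causes were not tested. With 2 or 3 arrays a group and signal near background, small differences of dim members cannot be seen.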
